A study of Sus scrofa with 79 samples.

Results

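The solute carrier (SLC) genes of the pig array were described across jejunum, ileum and blood. Members were all genes whose probe accession maps in RefSeq to a symbol that starts with SLC and a number. This gave 137 probes for 64 genes, among 36787 genes measured by the arrays, and 25 of the 64 genes had a single probe. A symbol was available for only 12.5% of the 43603 probes, so most members of the family were not named here. The glucose transporters of the SLC2A family were represented by SLC2A2 and SLC2A4 alone. SLC9A3R1 and SLC9A3R2 carry the prefix but encode scaffold proteins that bind sodium/hydrogen exchangers.

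Solute carriers are membrane proteins that move sugars, peptides, amino acids, ions, metals, vitamins and nucleotides across the plasma membrane and across organelle membranes. In the small intestine they sit on both faces of the enterocyte. SLC5A1 (SGLT1) takes up glucose with sodium and SLC15A1 (PEPT1) takes up short peptides with protons at the brush border, and SLC2A2 (GLUT2) lets hexoses pass on to the blood. The suckling gut digests lactose, milk protein and milk fat, and after weaning it receives starch and plant protein.

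The animals were piglets of 3 treatments. T1 piglets were left untreated, T2 piglets were injected with the macrolide antibiotic tulathromycin on day 4 of life, and T3 piglets received the same injection together with the handling that is routine on farms, namely tail docking, clipping and weighing. Jejunum and ileum were taken on days 8, 55 and 176 and blood on day 8. At day 8 the piglets were still with the sow, and RNA of 4 piglets was pooled for each array, with the same pools used for jejunum, ileum and blood. Each treatment had 4 pools per tissue and day, and 5 pools were not analysed here (pool 8 of T2 in ileum at day 8 and in both segments at day 55, pool 1 of T3 in ileum at day 176 and pool 7 of T2 in jejunum at day 176). The 79 arrays lay on 11 slides scanned on 4 days.

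Levels are log2 of the background-corrected spot intensity after quantile normalization, so that 1 unit is a 2-fold change. A gene was called higher or lower at an adjusted p below 0.05 (limma, Benjamini-Hochberg over all genes tested) and a fold change above 1.5, and the errors given are standard errors. For a group in which a gene was well above background on no array, only a bound was available there. Between 34.9% and 44.2% of spots on blood arrays and between 42.4% and 75.2% on tissue arrays were well above background. Differences of age, of segment and of blood against intestine compare averages of the T1, T2 and T3 group means, with equal weight. They therefore include the treated animals. Precision is limited by how many arrays each group had. Whole tissue was measured, so fewer cells of a type and less RNA per cell cannot be told apart.

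The array labels were set against the deposited table of processed values before use. The values of the 12 blood arrays and the 22 arrays of day 176 were found under their own names. For days 8 and 55, 44 tissue arrays had their values under the same treatment and pool but under another tissue or day. Jejunum of day 8 stood under ileum of day 8, jejunum of day 55 under jejunum of day 8, ileum of day 8 under ileum of day 55 and ileum of day 55 under jejunum of day 55. The array of jejunum day 8 T2 pool 8 matched no column, had the lowest correlation with its group (r = 0.957, others at least 0.985), and was left out. The labels of the arrays were used. Under these labels the enterocyte genes FABP1 and APOA4 were higher in jejunum than in ileum by 1.32 and 1.98 (log2) at day 55 and by 0.97 and 1.63 at day 176, and the B cell gene CD79A differed by −3.92 and −4.86, jejunum minus ileum. The summed level of the 3 markers listed for ileum did not follow the labels. This level (mean of centred log2 values) had medians of 1.04 in jejunum and 0.45 in ileum at day 55 and of 1.42 and 0.43 at day 176. GUCA2A and GUCA2B were called higher in jejunum at both days. The ileal bile acid binding protein FABP6 differed by −1.07 at day 55 and −2.08 at day 176, jejunum minus ileum. It was not called between the segments at any day. At day 8 the segments differed in few genes, so their labels could not be checked there. Of 2 genes chosen after their values were seen, PIGR, the epithelial receptor for IgA, had medians of 8.64 in jejunum and 7.31 in ileum at day 8, of 13.34 and 11.8 at day 55, and of 14.28 and 12.54 at day 176, and the fetal growth factor IGF2 had 10.84 and 10, 8.62 and 8.12, and 8.91 and 7.84. Comparisons of age or segment are given with the labels of the arrays, and their counts under the column names of that table (relabelled arrays) follow. Of 76 differences of named genes called by age, by age effect or between segments at days 8 and 55, 16 were also called in the same direction with relabelled arrays and 37 had the opposite direction. Treatment contrasts within a tissue and day hold the same arrays under either set of labels, and only the name of the tissue or day would change.

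From day 8 to day 55 SLC genes were called in both directions, with SLC5A1 rising in both segments and SLC30A2 and SLC26A11 falling in both. In jejunum 28 of 64 (43.8%) were called, 10 higher and 18 lower, beside 36.9% of all 30846 genes tested (18.1% higher and 18.9% lower). In ileum 46 (71.9%) were called, 15 higher and 31 lower, beside 47.5% of all genes (24.5% and 23%). The median SLC difference was 0.01 in jejunum and −0.44 in ileum, with medians over all genes of 0.029 and 0.111. Day 55 was scanned on other days than day 8, so that age and scan day cannot be told apart. With relabelled arrays, 39 were called in jejunum, of which 11 were also called with the array labels in the same direction, and 3 in ileum.

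The sodium-coupled glucose transporter SLC5A1 was higher in both segments at day 55. In jejunum its lowest, median and highest levels were 12.52, 12.83 and 13.81 at day 8, 15.38, 15.79 and 16 at day 55, and 15.19, 15.53 and 15.67 at day 176. In ileum they were 12.48, 12.92 and 13.57 at day 8, 14.57, 15.15 and 15.54 at day 55, and 13.94, 14.44 and 14.68 at day 176. Every array of day 8 lay below every array of both later days in either segment. The rise to day 55 was 2.73 ± 0.13 in jejunum (6.63-fold, adjusted p = 5.39e-24) and 2.14 ± 0.13 in ileum (4.42-fold, adjusted p = 5.88e-20). The fall of 0.77 ± 0.13 from day 55 to day 176 in ileum was called (adjusted p = 5.87e-06), and the difference of −0.22 ± 0.13 in jejunum was not. That ileal call was lost with scaling to the 75th percentile (−0.38) and in the T1 groups alone (−0.56, adjusted p = 0.0542). With relabelled arrays the differences from day 8 to day 55 were −0.58 in jejunum and 0.01 in ileum, and those from day 55 to day 176 were 0.36 and 1.37.

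SLC5A4 (SGLT3), a relative of SLC5A1 described as a low-affinity glucose transporter or glucose sensor, rose in jejunum and fell by far less in ileum. Its jejunal levels were 11.59, 12.12 and 12.73 at day 8 (lowest, median, highest), 14.52, 15.37 and 16.36 at day 55, and 14.46, 15.38 and 15.77 at day 176. The ileal levels were 12.04, 12.43 and 13.24, then 10.69, 11.71 and 14.3, then 10.21, 10.92 and 12.18. The jejunal and ileal arrays overlapped at day 8 and did not overlap at day 55 or day 176. The change to day 55 was 3.2 ± 0.25 in jejunum (9.16-fold, adjusted p = 1.21e-15) and −0.59 ± 0.25 in ileum (adjusted p = 0.0413), and the 2 changes differed by 3.79 ± 0.36 (adjusted p = 1.01e-11). Relabelled, that difference was −3.79 and the jejunal change −3.48.

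**Figure D1:**
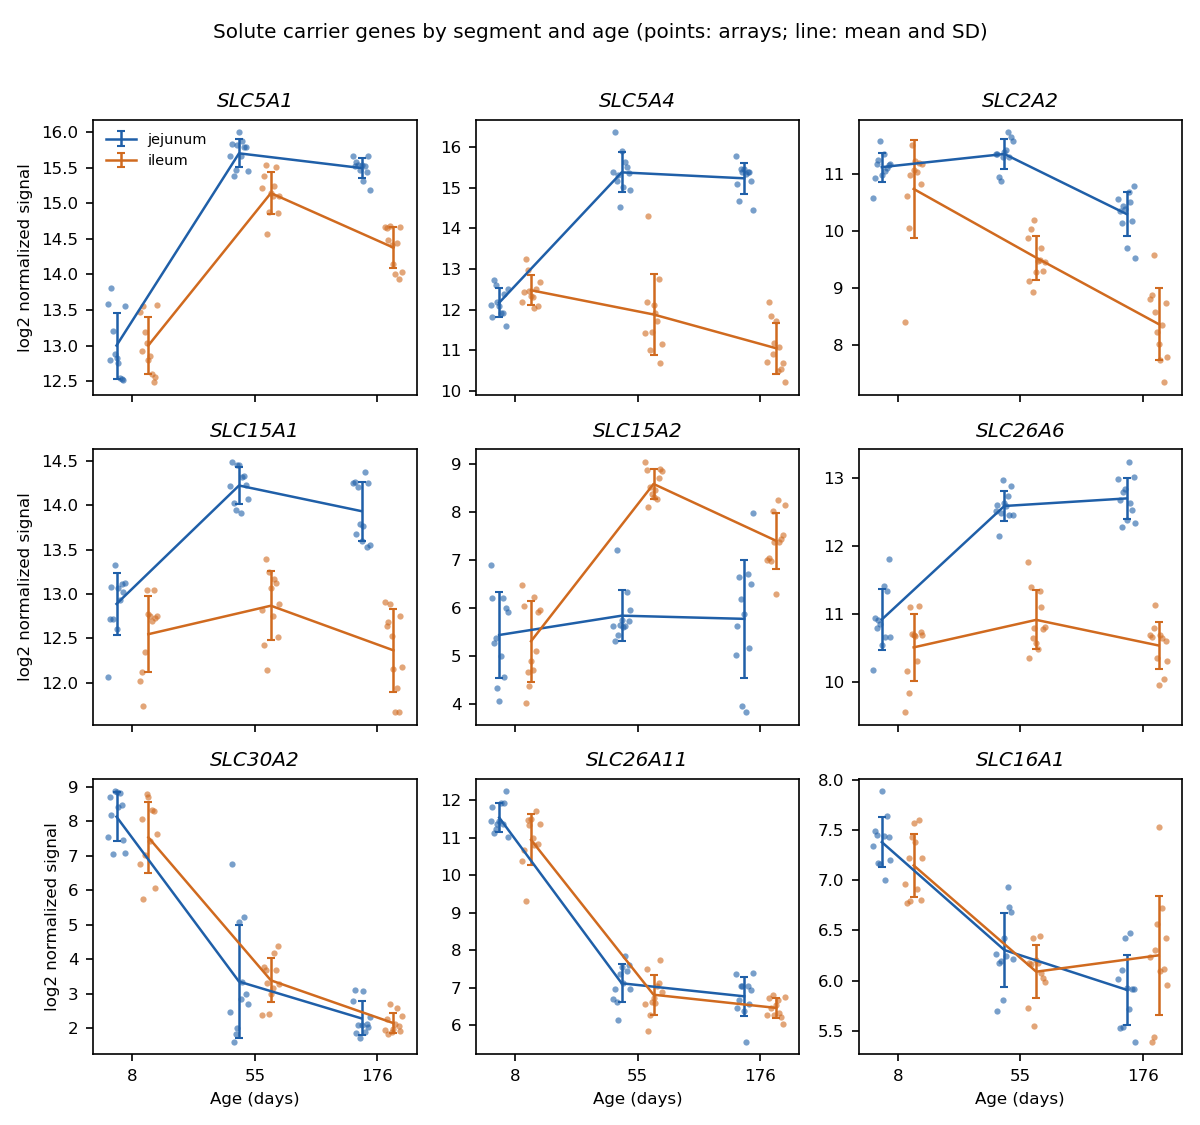
Levels of 9 solute carrier genes (log2 normalized signal) by age in days in jejunum (blue) and ileum (orange), 11 arrays per segment and age. Points are arrays and lines join means with SD bars: SLC5A1 rises in both segments, SLC5A4 in jejunum, SLC15A2 in ileum, and SLC30A2 and SLC26A11 fall in both.

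No other sugar or polyol carrier was called higher at day 55. SLC5A10 (SGLT5), a mannose and fructose carrier, had medians of 10.43 in jejunum and 10.71 in ileum at day 8 and 8.44 and 8.64 at day 55, and no array of day 55 reached an array of day 8. It fell by 2.08 ± 0.13 (adjusted p = 4.24e-19) and by 2 ± 0.13 (adjusted p = 1.19e-18). SLC5A11, which carries inositol, fell in ileum by 1.63 ± 0.16, from a median of 13.02 to 11.46, and its jejunal medians were 13.16 and 12.6. SLC2A2 had jejunal medians of 11.16, 11.36 and 10.39 at the 3 ages and ileal medians of 11.05, 9.48 and 8.35. Its ileal fall to day 55 was 1.24 ± 0.19 (adjusted p = 2.17e-07). A fall from day 55 to day 176 was called in both segments, by 1.06 ± 0.19 in jejunum and 1.21 ± 0.19 in ileum. In the T1 groups alone none of these falls was called (−0.53 to day 55, then −0.76 in jejunum and −0.53 in ileum). SLC2A4 (GLUT4), the insulin-regulated transporter of muscle and fat, was called lower at day 55 in both segments (−0.87 and −0.85) and higher again at day 176 (0.86 and 0.64), but its 3 probes disagreed for the jejunal change to day 176 (−0.44, 1.48 and 1.55). With normexp correction none of these calls was kept (−0.23 and −0.45, then 0.41 and 0.3), and with 75th percentile scaling the ileal calls were lost (−0.37 and 0.33). Of the 6 sugar carriers, 2 were called higher and 2 lower in jejunum at day 55, and 1 higher and 5 lower in ileum.

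Of the 9 peptide and amino acid carriers, 2 were called higher and none lower in jejunum, and 4 higher and 2 lower in ileum. SLC15A1 had jejunal levels of 12.06, 13.02 and 13.33 at day 8, 13.91, 14.23 and 14.49 at day 55 and 13.53, 13.79 and 14.38 at day 176. Its ileal levels were 11.74, 12.73 and 13.05, then 12.14, 12.89 and 13.4, then 11.67, 12.53 and 12.91. The ileal ages overlapped, and all jejunal arrays of day 55 were above those of day 8. It rose by 1.33 ± 0.14 in jejunum (adjusted p = 1.6e-11), against 0.31 ± 0.14 in ileum, which was not called, and the difference of 1.02 ± 0.2 between these changes was called (adjusted p = 4.26e-05).

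SLC15A2 (PEPT2), the high-affinity peptide transporter better known from kidney, had the opposite distribution. Its jejunal medians were 5.37, 5.65 and 5.88 at the 3 ages and its ileal medians 5.1, 8.52 and 7.38. All 11 ileal arrays of day 55 (8.1 to 9.04) were above all ileal arrays of day 8 (4.02 to 6.49) and above all jejunal arrays of day 55 (5.32 to 7.21). The ileal rise was 3.31 ± 0.29 (9.89-fold, adjusted p = 3.13e-14), and the change differed between the segments by −2.84 ± 0.41, jejunum minus ileum (adjusted p = 2.77e-07). With relabelled arrays the ileal change was −0.1. SLC7A1, an importer of cationic amino acids in many cell types, rose in ileum by 1.46 ± 0.15 (medians 7.38 and 8.87), and its jejunal medians were 7.27 and 7.56. SLC1A1, a glutamate and aspartate transporter, rose in jejunum by 1.42 ± 0.17 and in ileum by 0.91 ± 0.17. The 2 subunits of the cystine and dibasic amino acid transporter, SLC7A9 and SLC3A1, were not called in either segment at day 55. The basolateral SLC7A7 (y+LAT1) was called lower in ileum (−0.81), but not in the T1 groups alone (−0.62).

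Among the carriers of ions, metals and small molecules, the largest falls were those of SLC30A2 and SLC26A11. SLC26A11, a sulfate and anion transporter, had medians of 11.44 in jejunum and 11 in ileum at day 8, 7.12 and 6.72 at day 55, and 6.93 and 6.46 at day 176. It fell to day 55 by 4.39 ± 0.19 in jejunum (21-fold, adjusted p = 8.9e-26) and by 4.16 ± 0.19 in ileum (17.9-fold, adjusted p = 6.47e-25), with no overlap of arrays. SLC30A2 (ZnT2), which loads zinc into vesicles and supplies zinc to milk in the mammary gland, had medians of 8.41 and 7.62 at day 8 and 2.86 and 3.31 at day 55. It was well above background on all 22 arrays of day 8, on 3 of 11 arrays of each segment at day 55 and on none at day 176. Its falls were 4.82 ± 0.39 in jejunum and 4.24 ± 0.39 in ileum. With relabelled arrays the changes of SLC26A11 were −0.34 and −0.57, and those of SLC30A2 were 0 and −0.58.

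The metal carriers as a list held 2 called higher and 6 called lower of 12 in jejunum, and 1 higher and 8 lower in ileum. SLC11A2 (DMT1), the apical importer of iron, had jejunal medians of 8.72, 8.23 and 6.12 and ileal medians of 8.46, 6.45 and 6.52 over the 3 ages. Its fall came to day 55 in ileum (2.09 ± 0.25) and mainly to day 176 in jejunum (2.06 ± 0.25). The changes differed between the segments at both steps, by 1.3 ± 0.36 and by −2.12 ± 0.36 (adjusted p = 0.00322 and 9.14e-06). In the T1 groups alone the first of these differences was 0.78 and not called. SLC31A1 (CTR1), a copper importer, fell by 1.05 ± 0.35 in jejunum and by 2.3 ± 0.35 in ileum at day 55. SLC30A4 rose in jejunum by 1.09 ± 0.12, and SLC30A5 and SLC30A7, zinc transporters of the secretory pathway, fell in both segments by 0.88 to 1.38.

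SLC26A6, an apical anion exchanger, had jejunal medians of 10.86, 12.59 and 12.68 at the 3 ages, and its ileal arrays ranged from 9.56 to 11.12, from 10.36 to 11.76 and from 9.96 to 11.14. It rose in jejunum by 1.68 ± 0.16 (adjusted p = 1.62e-12) and the change differed between the segments by 1.31 ± 0.23. In the T1 groups alone that difference between the segments was 0.86 and not called. SLC22A13 (OAT10), an organic anion transporter, was well above background on all day 8 arrays and on no ileal array of either later day. Its ileal level was at least 10.5-fold lower at day 55 than at day 8 (adjusted p = 2.12e-16), and the jejunal fall was 1.76 ± 0.31. SLC19A2, a thiamine transporter, rose in ileum by 1.95 ± 0.14 (medians 9.03 and 11.05) and in jejunum by 0.8 ± 0.14 (9.01 and 9.81), a difference of −1.15 ± 0.19 (adjusted p = 4.55e-06). SLC22A4 (OCTN1), which carries ergothioneine and carnitine, had medians of 9.23 and 9.33 in jejunum and of 9.19 and 7.98 in ileum, and its change differed by 1.25 ± 0.15 (adjusted p = 5.94e-09). The creatine transporter SLC6A8 fell in both segments, from a median of 14.89 to 13.41 in jejunum and from 14.51 to 12.28 in ileum, and SLC16A1 (MCT1), which carries lactate and butyrate, fell by 1.1 ± 0.15 and 1.09 ± 0.15. SLC28A1 (CNT1), a concentrative nucleoside transporter, fell by 0.71 ± 0.16 in jejunum and by 1.91 ± 0.16 in ileum. Its jejunal change was −0.14 and not called in the T1 groups alone. SLC25A27, a mitochondrial carrier of the uncoupling protein family, fell in ileum by 2.36 ± 0.16.

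**Figure D2:**
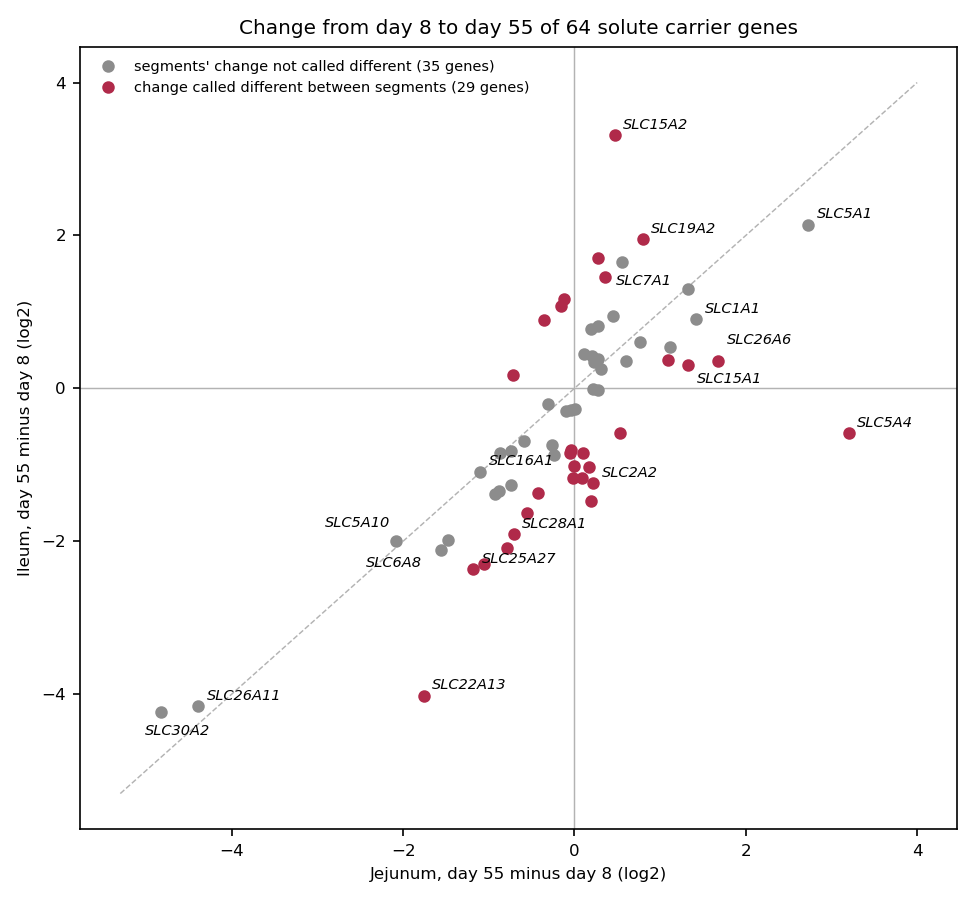
Difference between day 55 and day 8 (log2) of the 64 genes in jejunum (horizontal) and ileum (vertical), with the dashed line marking equal change. The 29 genes in red had a change that was called different between the segments, among them SLC5A4 far to the right of the line and SLC15A2 far above it.

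The age effect to day 55 was called different between jejunum and ileum for 29 of the 64 genes, 21 with the larger value in jejunum and 8 in ileum, beside 34.4% of all genes (17.4% and 17%). For the step from day 55 to day 176 it was called for 20, 7 and 13, beside 30.8% of all genes (16.7% and 14.1%), and 34 genes were called at either step, or 54 with relabelled arrays. The 13 genes of the absorptive list on the array, written for transporters of nutrients and electrolytes of the enterocyte, held 4 called higher and 3 lower in jejunum at day 55 and 2 higher and 5 lower in ileum.

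Other cell types moved with age as well. All 6 T cell markers tested were called higher at day 55 in each segment, and their summed level (mean of centred log2 values) ranged from −1.88 to −0.77 in jejunum and from −1.87 to −1.19 in ileum at day 8 and from 0.1 to 1.35 and 0.18 to 0.96 at day 55. Of 4 smooth muscle markers, 3 were called lower in jejunum and 4 in ileum. Of 9 enterocyte markers, 1 was called higher and none lower in jejunum, and 1 higher and 4 lower in ileum. The summed level of 2 B and plasma cell markers ranged from −1.6 to 1.24 in jejunum and from −2.47 to 0.57 in ileum at day 8, and from −1.24 to 0.68 and from 1.34 to 2.07 at day 55, and CD79A was called higher in ileum at day 55. Their part in the SLC results was not tested.

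From day 55 to day 176 the called SLC genes were mostly lower. In jejunum 31 were called, 7 higher and 24 lower, beside 37.1% of all genes (20.1% higher and 17.1% lower), and in ileum 22, of which 5 were higher and 17 lower, beside 28.4% (15.4% and 13%). The medians were −0.26 and −0.36 for SLC genes and 0.008 and −0.014 for all genes. Relabelled, 34 were called in jejunum, 18 higher and 16 lower, and 44 in ileum, 12 higher and 32 lower. The split in jejunum with each array scaled to its 75th percentile was 13 higher and 21 lower, and scaling moved the median of all genes by 0.488 there. Day 176 was scanned on another day than either segment of day 55, so that age and scan day cannot be told apart for this step either. Of 9 enterocyte markers, 3 were called lower in jejunum and 2 in ileum and none higher, and their summed level moved from a median of 0.75 to 0.21 in jejunum and from −0.31 to −1.05 in ileum. Of 6 myeloid markers, 1 was called higher in jejunum and 4 in ileum, where the median of their summed level was −0.33 at day 55 and 1.3 at day 176. Of 4 smooth muscle markers, 3 were called higher in jejunum. Their part in the SLC differences was not tested.

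Among the absorptive genes none was called higher and 7 of 13 lower in jejunum, and 5 lower in ileum. They included SLC7A7 (−0.93 and −0.86), SLC7A9 (−0.7 and −0.69), SLC2A2 and SLC9A2 (NHE2, an apical sodium/hydrogen exchanger, −1.49 in each segment). SLC3A1 (−0.66) and SLC1A1 (−1.17) were called lower in jejunum. SLC30A1 (ZnT1), which exports zinc across the basolateral membrane, had medians of 11.37 and 9.83 in jejunum with no overlap of arrays, a fall of 1.66 ± 0.14 (adjusted p = 7.81e-14). SLC44A4, a carrier of choline and thiamine pyrophosphate, fell in ileum from 14.11 to 13.19 (0.92 ± 0.12, no overlap), a difference of −0.44 that was not called with 75th percentile scaling. The largest non-overlapping rise in jejunum was that of SLC22A7 (OAT2), an organic anion transporter, from 5.41 to 6.87 (1.53 ± 0.16, adjusted p = 4.19e-11), and in ileum that of SLC35C2, a member of the nucleotide sugar transporter family, from 10.88 to 11.64 (0.88 ± 0.15). The jejunal array of T2 pool 8 at day 176 stood apart from its group (r = 0.852, next 0.948). Without it SLC3A1 and SLC7A9 differed by −0.57 and −0.45 in jejunum and were not called. In the T1 groups alone 12 genes were called in jejunum and 10 in ileum. SLC2A2, SLC7A7 (−0.02 and −0.49) and SLC7A9 then passed in neither segment. The jejunal falls of SLC9A2 (−0.63), SLC1A1 (−0.63) and SLC3A1 (−0.12) were not called in the T1 groups alone either. For SLC11A1, called higher at day 176, the 2 probes disagreed in jejunum (−0.35 and 1.82).

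**Figure D3:**
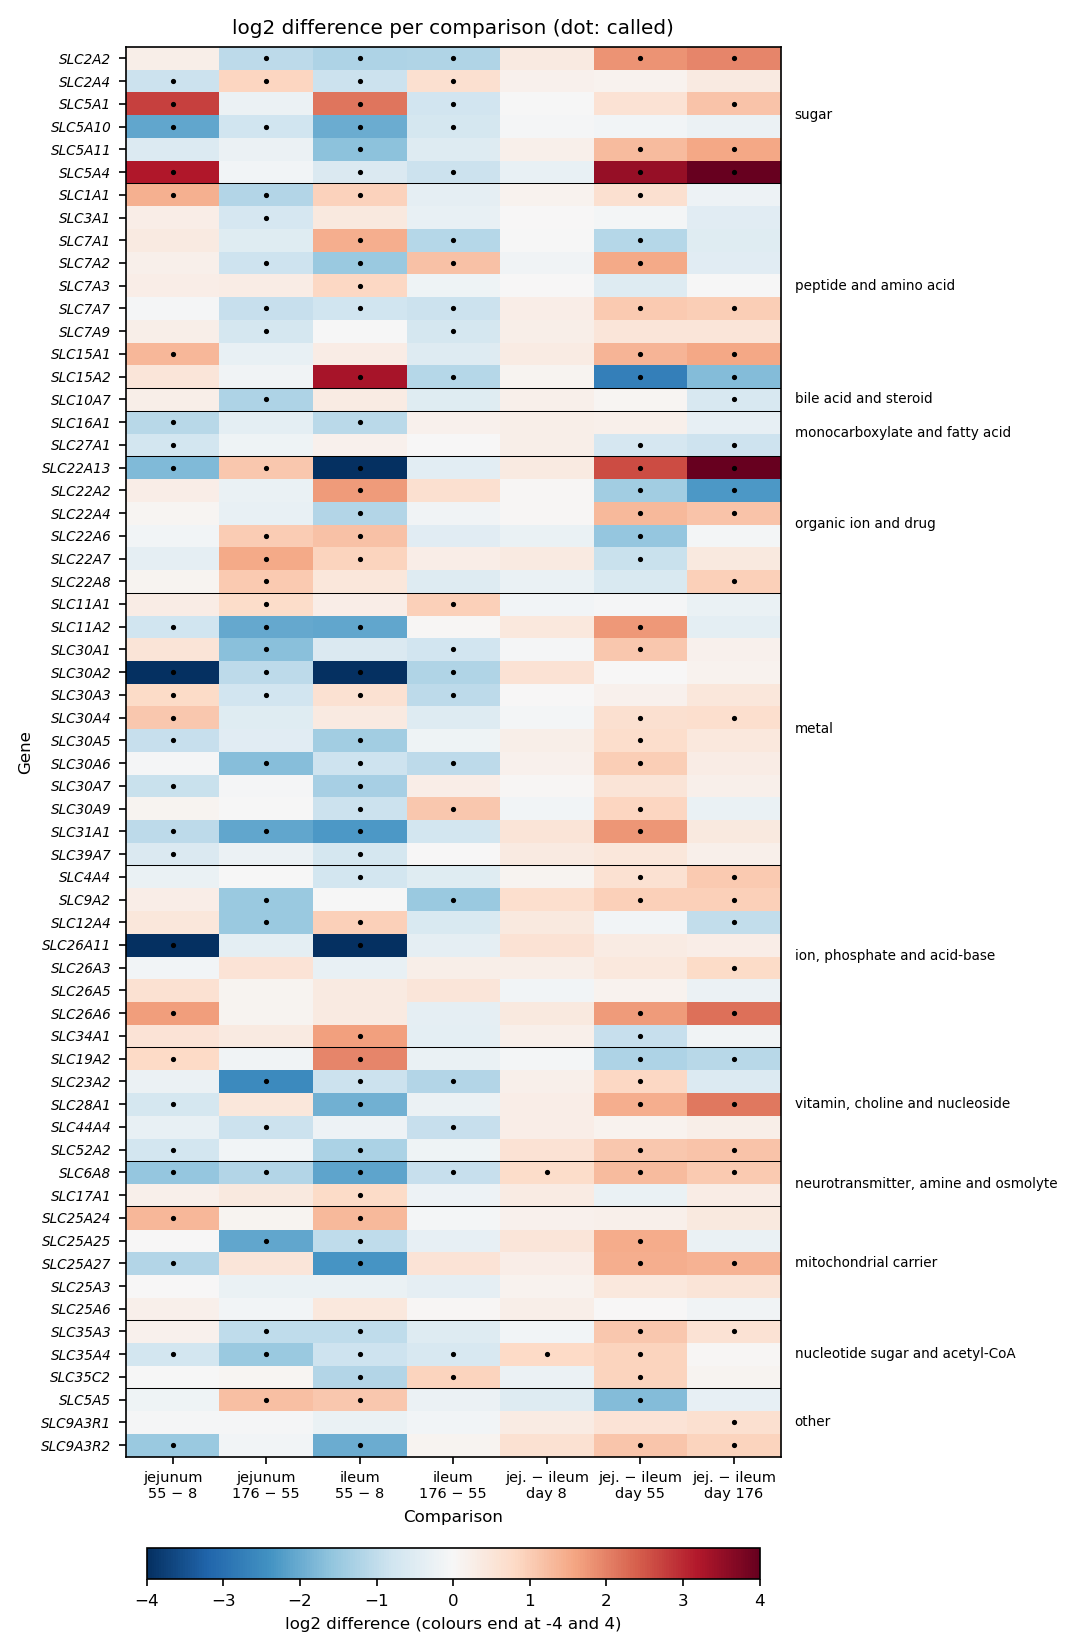
Difference (log2, colour) of 62 of the genes in the 4 age comparisons and the 3 segment comparisons, grouped by what the carriers transport, with a dot where the gene was called. The first columns show SLC5A1 and SLC5A4 red and SLC30A2 and SLC26A11 dark blue, and the day 8 segment column holds dots for SLC35A4 and SLC6A8.

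The segments were compared at each age. At day 8, 3 SLC genes were called, beside 2.1% of all genes (1.66% higher and 0.444% lower in jejunum), and all 3 were higher in jejunum with overlapping arrays. Among them were SLC35A4 (0.81 ± 0.22, adjusted p = 0.0333) and SLC6A8 (0.72 ± 0.18, adjusted p = 0.021). With slide as a random block (correlation 0.104) or within the slide that held both segments none was called, and 28 were called with relabelled arrays. The random block fit held no term for treatment. The comparison within the slide set jejunum of T1 against ileum of T3, so that segment and treatment cannot be told apart in it. No absorptive gene was called at day 8, and SLC5A1 differed by −0.01 ± 0.13 between the segments.

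At day 55, 39 SLC genes were called, 30 higher in jejunum and 9 higher in ileum, beside 39.9% of all genes, of which 20% were higher in jejunum and 19.9% in ileum. The median was 0.55 for SLC genes and −0.029 for all genes. At day 176, 28 were called, 22 and 6, beside 29% of all genes (14.8% and 14.2%), with medians of 0.3 and 0.068. The 2 segments of day 176 were scanned on 1 day, while those of day 55 were scanned on different days, so that segment and scan day cannot be told apart there. With relabelled arrays, 46 were called at day 55, of which 1 was also called with the array labels in the same direction, and day 176 was not affected.

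Of the 13 absorptive genes, 8 were called higher in jejunum and none in ileum at day 55, and the same counts held at day 176, with medians of 0.95 and 0.96. SLC5A4, which is not on the absorptive list, was higher in jejunum by 3.48 ± 0.25 at day 55 and by 4.24 ± 0.25 at day 176 (18.9-fold, adjusted p = 2.9e-19). SLC15A1 was higher by 1.35 ± 0.14 and 1.56 ± 0.14 (adjusted p = 1.76e-11 and 2.98e-13), and SLC2A2 by 1.81 ± 0.19 and 1.96 ± 0.19. SLC5A1 was called at day 176 (1.13 ± 0.13, adjusted p = 7.12e-10, no overlap) and not at day 55, where its difference of 0.58 ± 0.13 was below the fold threshold but was 1.21 and called with scaling to the 75th percentile. SLC7A7 and SLC9A2 were higher in jejunum by 0.95 to 1.05 at both ages. In the T1 groups alone neither was called at day 55 (0.74 and 0.76). For SLC7A7 at day 176, 3 of its 4 probes gave 1.41 to 1.54 and the other gave −0.54.

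SLC26A6 was higher in jejunum by 1.71 ± 0.16 and 2.19 ± 0.16 and SLC28A1 by 1.45 ± 0.16 and 2.11 ± 0.16. SLC26A3, a chloride/bicarbonate exchanger, was called at day 176 (0.77 ± 0.22). The call was lost with slide as a random block (0.63, adjusted p = 0.0556), in the T1 groups alone (0.52) and within the slide that held both segments (0.23, adjusted p = 0.782). The random block fit held no term for treatment. That slide held jejunum of T3 and ileum of T1, so that segment and treatment cannot be told apart within it.

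Outside the absorptive list, SLC22A13 was well above background on 9 and 11 of 11 jejunal arrays and on no ileal array, and was at least 3.97-fold higher in jejunum at day 55 and at least 16-fold higher at day 176. Higher in ileum were SLC15A2 by 2.74 ± 0.29 at day 55 and 1.75 ± 0.29 at day 176, and SLC19A2 by 1.24 ± 0.14 and 1.12 ± 0.14. The iodide transporter SLC5A5 (1.75 ± 0.22) and the organic anion transporter SLC22A6 (OAT1, 1.54 ± 0.22) were higher in ileum at day 55, and the fatty acid carrier SLC27A1 at day 176 (0.84 ± 0.16). The SLC27A1 call was lost with 75th percentile scaling (−0.58, jejunum minus ileum) and with normexp correction (−0.46).

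Markers of enterocytes also differed between the segments. Of 9 markers, 6 were called higher in jejunum and none in ileum at day 55 and at day 176. Their summed level ranged from 0.43 to 0.83 in jejunum and from −0.83 to −0.14 in ileum at day 55, from −1.4 to 0.54 and from −1.49 to −0.71 at day 176, and from 0.3 to 0.51 and from −0.12 to 0.41 at day 8. Of 12 other transport genes (pumps, channels and binding proteins of absorption), 6 were called higher in jejunum and 1 in ileum at day 55 and 6 and none at day 176. Of 5 brush-border hydrolases, 4 and 3 were called higher in jejunum and none in ileum. The B cell marker CD79A was higher in ileum, and the summed level of B and plasma cell markers ranged from −1.24 to 0.68 in jejunum and from 1.34 to 2.07 in ileum at day 55, and from −4.81 to 0.62 and from 0.19 to 1.8 at day 176. Of 6 myeloid markers, 5 were called higher in ileum at day 176. The part of these markers in the SLC results was not tested.

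Treatment was compared within each tissue and day, and the contrasts of T2 and of T3 share the T1 pools. At day 8 no SLC gene was called in blood in any of the 3 contrasts (limma, with 4, 5 and 1 of 59 genes at an unadjusted p under 0.05 for T2 against T1, T3 against T1 and T3 against T2). In blood 0.00694%, 0.00347% and 0% of all genes were called in these contrasts. In jejunum none was called either (4, 1 and 2 of 61 at an unadjusted p under 0.05), beside 0.546%, 0% and 0.0141% of all genes. In ileum 1 was called, in T3 against T1, beside 2.49% of all genes, and none in T2 against T1 or T3 against T2, beside 0.69% and 0.567%, although 17 and 6 of 61 had an unadjusted p under 0.05.

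The ileal gene was SLC15A1. Its levels in ileum at day 8 were 12.06, 12.17, 11.79 and 12.38 in the T1 pools, 13.07, 12.8 and 12.79 in the T2 pools and 12.74, 13.08, 12.77 and 12.8 in the T3 pools. Every T2 and T3 pool was above every T1 pool. T3 was higher than T1 by 0.75 ± 0.2 (adjusted p = 0.0497), close to the threshold, and it was called in 3 of the 22 fits that each left out 1 array. The call was also lost with another scaling, with no filter, with jejunal T2 pool 8 kept and with sets of sows as a block (adjusted p = 0.0577). Its T3 and T1 arrays lay on different slides. The array of T1 pool 11, which held the lowest value, had the lowest correlation with its group (r = 0.949, next 0.979) and the smallest share of spots above background of the ileal arrays of day 8 (59.1%). No enterocyte marker was called, but their summed level ranged from −0.12 to 0.4 in T1, 0.23 to 0.32 in T2 and 0.25 to 0.41 in T3, and that of brush-border hydrolases from −0.29 to 1.03, 0.83 to 1.09 and 0.75 to 1.12. Their part was not tested. Without T1 pool 12 the count of called SLC genes in ileum was 18 in place of 1. Called genes of the whole array were not counted in that fit.

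At day 55 more SLC genes were called in jejunum. In T2 against T1, 6 of 63 were called, all higher in T2, beside 3.32% of all genes (2.83% higher and 0.49% lower). In T3 against T1, 17 were called, 15 higher and 2 lower, beside 12.2% of all genes (6.85% and 5.33%). In T3 against T2 none was called (10 at an unadjusted p under 0.05), beside 0.86% of all genes. The T2 and T1 arrays shared a slide, while those of T3 lay on another, so that T3 and slide cannot be told apart. Before normalization the T1 arrays were the dimmest, with a median log2 signal of 5.097 to 5.328. It was 5.764 to 5.912 on the T2 arrays and 5.68 to 5.88 on those of T3. The part of this in the calls was not tested.

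Values of T2 and T3 are given side by side for 4 of the 6 genes called in T2. SLC44A4 had levels of 13.68, 13.8, 13.68 and 13.68 in T1, 14.52, 14.53 and 14.47 in T2 and 14.76, 14.57, 14.7 and 14.45 in T3. The treated pools were all above the T1 pools, by 0.8 ± 0.15 for T2 (adjusted p = 0.00399) and 0.91 ± 0.14 for T3 (adjusted p = 0.00019). SLC39A7 (ZIP7), which releases zinc from the endoplasmic reticulum, had levels of 10.07, 10.06, 10.2 and 10.2 in T1, 10.58, 10.97 and 10.68 in T2, and 11.17, 10.99, 11.15 and 11.09 in T3. Its differences were 0.61 ± 0.14 (adjusted p = 0.0172) and 0.97 ± 0.13 (adjusted p = 6.2e-05), and the T1 pools again lay lowest.

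SLC35A4, of the nucleotide sugar transporter family, had jejunal levels of 6.5, 6.2, 6.73 and 6.36 in T1, 8.08, 7.76 and 7.48 in T2 and 9.08, 7.77, 8.43 and 7.71 in T3. It was higher by 1.33 ± 0.26 in T2 (adjusted p = 0.00712) and by 1.8 ± 0.24 in T3 (adjusted p = 7.52e-05), with no overlap with T1. SLC30A3 (ZnT3), known as the zinc transporter of synaptic vesicles, had levels of 8.01, 8.06, 8.7 and 8.45 in T1, 9.51, 9.7 and 9.15 in T2, and 9.47, 9.2, 9.7 and 9.12 in T3, with differences of 1.15 ± 0.24 and 1.07 ± 0.23. The T1 pools were the lowest for this gene too.

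In T3 against T1, SLC25A25, a mitochondrial carrier of ATP-magnesium and phosphate, was above background on all 4 T3 arrays and on no T1 array and was at least 4.04-fold higher (adjusted p = 0.00137). The absorptive genes SLC7A7 (0.96 ± 0.23), SLC9A2 (0.79 ± 0.21) and SLC3A1 (0.72 ± 0.23) were higher in T3. The 2 lower genes were the macrophage metal transporter SLC11A1 (−0.71 ± 0.18) and SLC22A7 (−0.68 ± 0.19). With normexp background correction in place of the scanner's, 10 SLC genes were called over the treatment contrasts of jejunum at day 55 in place of 17, and SLC25A25 was not among them (T3 minus T1 of 0.5).

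Markers of cell types moved with the jejunal treatments of day 55. In T3 against T1, 2 of 9 enterocyte markers, 4 of 7 T cell markers and 2 of 4 smooth muscle markers were called higher and 1 smooth muscle marker lower, and in T2 against T1, 1 T cell marker was called higher and no enterocyte or smooth muscle marker. The summed enterocyte level ranged from 0.43 to 0.67 in T1, 0.65 to 0.78 in T2 and 0.75 to 0.83 in T3, and the summed T cell level from 0.1 to 0.71, 0.57 to 1.2 and 0.88 to 1.35. Their part in the SLC differences was not tested.

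**Figure D4:**
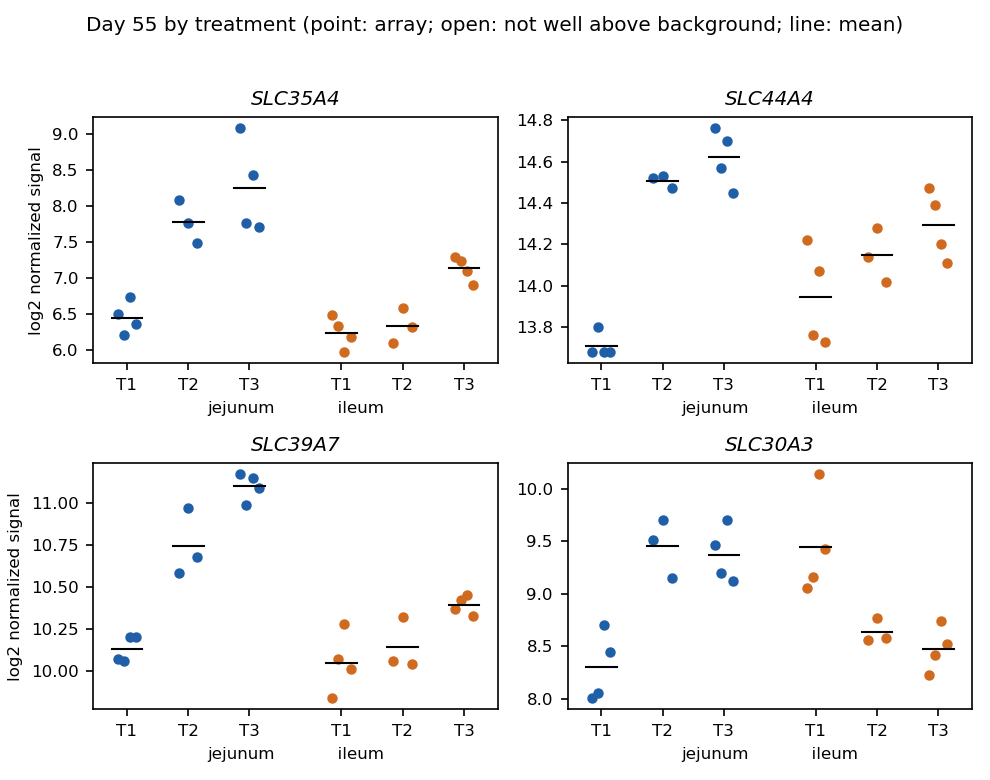
Levels at day 55 (log2 normalized signal) of 4 of the 6 genes called in jejunum for T2 against T1, by treatment in jejunum (blue) and ileum (orange); each point is the array of 1 pool, and lines are means. In jejunum the T1 pools lie below all T2 and T3 pools for each gene, and in ileum SLC30A3 runs the other way.

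In ileum at day 55 no SLC gene was called in T2 against T1 (4 of 63 at an unadjusted p under 0.05) or T3 against T2 (7), beside 0.08% and 8.26% of all genes, and 7 were called in T3 against T1, 4 higher and 3 lower, beside 14.8% of all genes (8.54% and 6.23%). SLC30A3 had levels of 9.06, 9.16, 10.14 and 9.43 in T1, 8.56, 8.77 and 8.58 in T2 and 8.23, 8.42, 8.74 and 8.52 in T3. All treated pools were below the T1 pools, and T3 was lower by 0.97 ± 0.23 (adjusted p = 0.00633). SLC35A4 was higher in T3 by 0.89 ± 0.24, with T1 pools at 6.48, 6.33, 5.97 and 6.18 and T3 pools at 7.29, 7.24, 7.1 and 6.9. SLC28A1 was higher by 1.02 ± 0.29 and SLC6A8 by 0.65 ± 0.21. SLC22A13 was called higher (adjusted p = 0.0172) and the phosphate transporter SLC34A1 lower (adjusted p = 0.0391), but SLC22A13 was above background in neither group and SLC34A1 was not in T3, so no fold is given, and SLC22A7 was at least 1.3-fold lower. The T3 and T1 arrays lay on different slides. Between 42.4% and 52.0% of spots were well above background on the T3 arrays, against 62.7% to 73.2% on those of T1 and T2, and the part of this in the T3 calls was not tested. Without T3 pool 1 the count was 3. With normexp correction 1 gene was called, and SLC30A3 (−0.36), SLC35A4 (0.49) and SLC28A1 (0.41) did not pass.

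The effects of treatment in the 2 segments of day 55 were compared directly, a test added after the values were seen. It rests on the array labels of both segments, since under the column names of the deposited table these arrays would be jejunum of day 8 and jejunum of day 55, and no segments would be compared. For T2 against T1, where T1 and T2 shared a slide within each segment, 2 of 63 genes had an effect called different, beside 0.263% of all genes (8 at an unadjusted p under 0.05). One of them was SLC30A3, with an effect higher in jejunum than in ileum by 1.96 ± 0.34 (adjusted p = 0.028). For T3 against T1, 4 were called, beside 5.96% of all genes, among them SLC30A3 (2.04 ± 0.32) and SLC39A7 (0.63 ± 0.18). The effect on SLC35A4 was not called different (0.91, adjusted p = 0.123). SLC30A3 was called for both contrasts under 75th percentile scaling (2.06 and 2.08), normexp correction (1.16 and 1.33) and both other filters, and with each array left out in turn its T3 difference stayed between 1.81 and 2.17 and was called in 22 of 22 fits, while that of T2 was called in 15. SLC39A7 was called in 2 of 22 fits with an array left out, and was not called with normexp correction (0.29).

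At day 176 a single SLC gene was called. In jejunum SLC22A6 had levels of 5.28, 6.22, 5.78 and 6.2 in T1, 3.87, 4.73 and 4.67 in T2, and 6.21, 5.2, 5.11 and 5.42 in T3. The T2 pools were the lowest, by 1.45 ± 0.32 against T1 (adjusted p = 0.0282), beside 1.59% of all genes called. No gene was called in T3 against T1 or T3 against T2 in jejunum (1 and 16 of 61 at an unadjusted p under 0.05), beside 0% and 1.16% of all genes, or in any contrast in ileum (5, 4 and 0), beside 0.0106%, 0.00354% and 0%. The SLC22A6 call was lost without T2 pool 5 or without any of T1 pools 10, 11 and 12, and the count rose to 6 without T2 pool 6. The T2 group included pool 8, the array that stood apart. The summed level of B and plasma cell markers ranged from −4.81 to −1.56 in T2 and from −1.3 to 0.46 in T1, with none of these markers called, and its part in the result was not tested.

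Blood of day 8 was set against jejunum and ileum of the same pools. Of 64 genes, 58 were called, 18 higher and 40 lower in blood, beside 76.2% of all 33022 genes (41.8% higher and 34.3% lower). The median difference was −2.06 for SLC genes and 0.206 for all genes. Blood and tissue were scanned on different days, which cannot be told apart from the tissue. With relabelled arrays, 55 were called, 54 of them shared.

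Of the 13 absorptive genes, 12 were lower in blood and 1 was higher. SLC5A1 had levels of 1.96, 3.03 and 3.55 in blood (lowest, median, highest of 12 arrays), 11.15, 11.47 and 12.51 in jejunum and 11.12, 11.58 and 12.26 in ileum, and was well above background on 5 blood arrays. It was lower in blood by 8.7 ± 0.16 (417-fold, adjusted p = 7.7e-28). SLC15A1, SLC2A2, SLC7A9 and SLC9A2 were well above background on no blood array, and were at least 91.5-fold, 30.5-fold, 244-fold and 17.6-fold lower there. SLC5A11 and SLC6A8 were at least 149-fold and 354-fold lower. SLC44A4, at 2.98, 3.78 and 4.19 in blood and 12.22 to 13.83 in the segments, was 855-fold lower (adjusted p = 4.09e-30). SLC16A1 was the absorptive gene that was higher, with medians of 7.07 in blood, 6.3 in jejunum and 6.16 in ileum (0.94 ± 0.14, adjusted p = 5.76e-07).

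SLC30A3 stood highest against tissue, at 12.43, 12.76 and 13.52 in blood and 6.22 to 7.77 in the segments, a difference of 6.03 ± 0.14 (65.3-fold, adjusted p = 1.17e-25). SLC22A6, at 8.45, 8.99 and 9.8 in blood and at most 6.32 in the segments, was 16.3-fold higher, and SLC5A5, at 5.65, 8.08 and 8.7 in blood and at most 5 in the segments, was 14.7-fold higher. SLC15A2 was 8.7-fold higher, with medians of 7.4 in blood, 4.11 in jejunum and 3.88 in ileum. None of these genes overlapped between blood and tissue. SLC11A1, the metal transporter of phagocytes, was 4.33-fold higher. SLC17A1, SLC7A3 and SLC22A8 were called higher but were well above background on no blood array. All 9 enterocyte markers and all 4 smooth muscle markers were called lower in blood and all 7 T cell markers higher, and their part in the SLC differences was not tested.

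**Figure D5:**
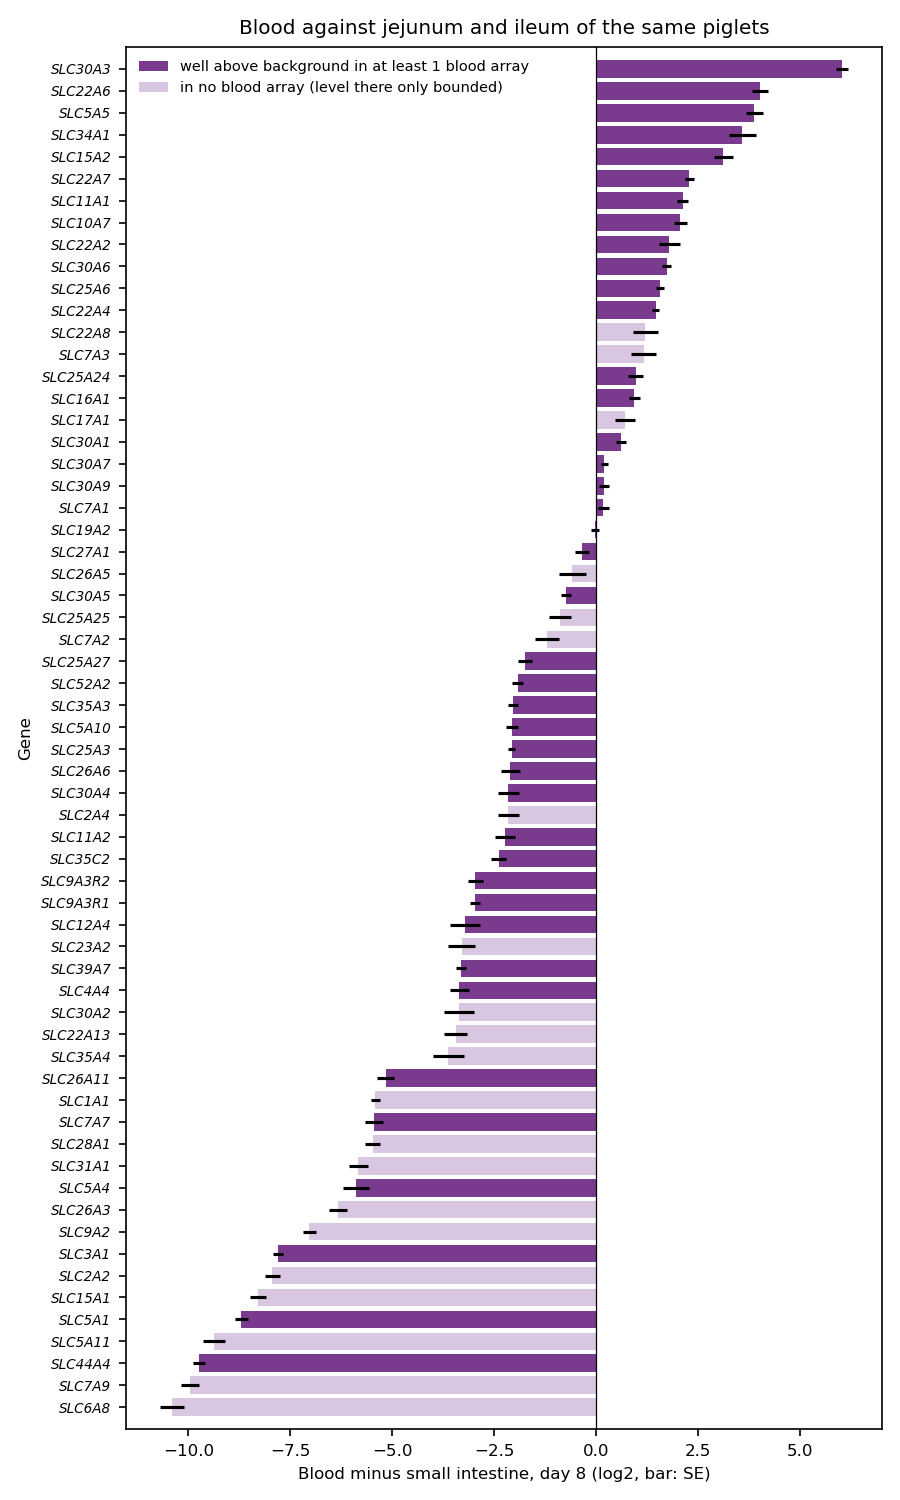
Difference between blood and small intestine at day 8 (log2, bars with SE) for 62 of the genes, sorted, with pale bars for genes well above background on no blood array, where the level in blood is only bounded. SLC30A3 leads the higher genes at 6.03, and the absorptive carriers SLC5A1, SLC15A1, SLC7A9 and SLC2A2 lie among the lowest.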

How the data were processed

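RNA of pools of piglets was hybridised to 79 1-colour Agilent pig arrays. The authors deposited the output of Agilent Feature Extraction 10.7.3.1 as linear intensity values with the background subtracted, not normalized between arrays. A table of log2 values that the authors also deposited, centred per probe, served only for the check of labels.

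Processed signals were set to at least 1 and log2 transformed. Control and outlier spots were dropped, spots were averaged per probe, and the arrays of each fit were quantile normalized, so that levels of different fits are not on 1 scale. A probe was kept if all arrays of some group reached the 20th percentile, and probes were averaged per symbol (RefSeq, Sscrofa11.1) or accession. Group means were fitted with limma 3.58.1 (statmod 1.5.0, R 4.3.3) over 66 arrays for age and segment, 34 for blood against intestine, 22 for treatments of each day and 12 for those of blood, in which 64, 64, 61 (day 8), 63 (day 55), 61 (day 176) and 59 of the SLC genes passed the filter. Nothing in the labels says more than that pools are separate, so p-values measure the spread between pools. According to the methods, jejunum, ileum and blood of day 8 came from the same piglets, and the pools of the treatments from the same sets of sows. Deviations from group means of jejunum and ileum of 1 pool at day 8 had a median correlation of 0.16, those of other pools −0.081. Normexp correction (offset 50) used the median signal and median background. Scripts were tested on simulated data.

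The members and gene lists were chosen with earlier results of these data known. Genes named were the absorptive and SLC2A genes, the 4 largest called, non-overlapping differences in each direction of an age, segment or blood comparison, up to 6 SLC genes called per treatment contrast, and the 4 age effects with the smallest adjusted p. Some genes that meet these rules are not reported here. SLC11A1, SLC17A1, SLC22A8, SLC7A3, SLC30A4, SLC30A5, SLC30A7, values of named genes in further comparisons and the treatment effects compared between segments were chosen after their values were seen.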

Additional observations from a re-analysis of the deposited data

Results flagged for a closer look

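For 4 genes the change from day 8 to day 55 differed between jejunum and ileum by limma's test of the difference itself, with arrays as labelled. The difference, jejunum minus ileum, was 3.79 for SLC5A4, −2.84 for SLC15A2, 1.25 for SLC22A4 and −1.15 for SLC19A2. With the arrays named by the columns of the deposited log2 values it was −3.79, 2.84, −1.25 and 1.15 for SLC5A4, SLC15A2, SLC22A4 and SLC19A2.

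At day 55 the effect of T2 against T1 differed between the segments by 1.96 for SLC30A3 (jejunum minus ileum). The effect of T3 against T1 differed by 2.04 for SLC30A3 and by 0.63 for SLC39A7. These differences were tested after the single effects had been seen, and under the columns of the deposited log2 values the arrays would be jejunum of days 8 and 55, not 2 segments. With scaling to the 75th percentile SLC30A3 gave 2.06 and 2.08.

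In 2 of 28 pairs of a gene and a group of 4 pools that were looked at, a pool stood far from the others, where chance flags about 1 in 20 groups. SLC15A1 in ileum T3 at day 8 was at 13.08 in pool 2, with the other pools from 12.74 to 12.8. SLC44A4 in jejunum T1 at day 55 was at 13.8 in pool 10, with the other pools at 13.68.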

How the results depend on the processing

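Some counts of called SLC genes stayed within 1.5 times the main count under every alternative run, array removal included. They were those of jejunum day 55 against day 8, of segments at days 55 and 176 and of blood with intestine. The count for treatments in jejunum at day 8 stayed at 0. Shares over all genes are not given for the alternatives, so a moved count does not speak for SLC genes in particular. Like counts did not always mean the same genes. With relabelled arrays, only 11 of 39 in jejunum from day 8 to day 55 were also called with the array labels in the same direction. Between segments at day 55 it was 1 of 46. Normexp correction gave 20 in place of 31 for jejunum day 176 against day 55, and, over the treatment contrasts, 10 in place of 17 in jejunum at day 55, 1 in place of 7 in ileum at day 55, 4 in place of 1 in ileum at day 8 and 4 in place of 1 in jejunum at day 176. With T1 groups only, 12 were called for jejunum and 10 for ileum (in place of 22) from day 55 to day 176, 7 between segments at day 8 and 20 (in place of 34) for the age effect, where SLC28A1 reversed to −0.06 from day 55 to day 176. The 3 genes between segments at day 8 became 7 with jejunal T2 pool 8 kept, 1 with the arrays fitted alone, 1 with the replicate block (pool within a day), and 0 with slide as a random block or within a slide. The 1 treatment call in ileum at day 8 became 0 with 75th percentile scaling, with no filter, with jejunal T2 pool 8 kept, with 1 treatment effect for both tissues, with slide as a fixed term, and with the replicate block of sow sets, and became 3 with a filter on spots well above background. The replicate block gave 2 in place of 1 in jejunum at day 176. Slide as a fixed term was fitted with 1 treatment effect for both tissues, at day 8 and at day 176. Its count of 1 at day 176 is therefore that of both tissues together and not of ileum alone. The replicate block changed no other count by over 1.5 times, and its correlations were weak at days 55 and 176 (median 0.0588 and 0.0529). With the relabelled arrays, added after the data were seen like the slide as a fixed term and the comparison within a slide, counts were 3 in place of 46 for ileum day 55 against day 8, 44 for ileum day 176 against day 55, 28 between segments at day 8 and 54 for the age effect. With relabelled arrays, of 76 differences of named genes called by age, by age effect or between segments at days 8 and 55, 16 kept their call and direction, 23 kept the direction but not the call, and 37 had the opposite direction, 28 of them called. The opposite direction, or a call in the opposite direction to an uncalled difference, was found for SLC15A1 (−1.35), SLC1A1 (−0.63), SLC26A6 (−1.71), SLC2A2 (−1.81), SLC5A1 (−0.58), SLC5A10 (0.12), SLC5A4 (−3.48) and SLC9A2 (−0.95) in jejunum from day 8 to day 55. It was also found for SLC15A1 (1.03), SLC2A2 (0.75), SLC6A8 (0.12) and SLC7A7 (0.12) in jejunum from day 55 to day 176, and for SLC15A2 (−0.1) and SLC1A1 (−0.13) in ileum from day 8 to day 55. It was also found for SLC11A2 (−2.03), SLC16A1 (−0.93), SLC2A4 (−0.22), SLC35C2 (−0.29) and SLC5A1 (1.37) in ileum from day 55 to day 176, and for SLC11A2 (−0.79), SLC16A1 (−1.1), SLC28A1 (−0.71), SLC2A4 (−0.87) and SLC5A1 (2.73) between segments at day 8. It was also found for SLC11A2 (−2.09), SLC15A2 (3.31), SLC16A1 (−1.09), SLC19A2 (1.95), SLC22A13 (−4.02), SLC22A6 (1.17), SLC28A1 (−1.91), SLC2A2 (−1.24), SLC2A4 (−0.85), SLC31A1 (−2.3), SLC5A4 (−0.59), SLC5A5 (1.08), SLC7A7 (−0.81) and SLC9A2 (−0.02) between segments at day 55. It was also found for SLC11A2 (−1.3), SLC15A1 (−1.02), SLC15A2 (2.84), SLC19A2 (1.15), SLC22A4 (−1.25), SLC26A6 (−1.31), SLC28A1 (−1.2), SLC2A2 (−1.46), SLC5A4 (−3.79) and SLC7A7 (−0.77) for the age effect to day 55, and for SLC11A2 (1.69), SLC16A1 (0.77), SLC5A1 (−1.01) and SLC7A7 (1.79) for the age effect to day 176. Slide as a random block could not be fitted for treatments, since each group lay on 1 slide. For age, segment and blood it was fitted to groups of tissue and day with no term for treatment. Its counts thus differ from the main ones in slide and in treatment. The comparison within a slide set segments of different treatments against each other. The cause of these changes was not tested.

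Without 1 array at a time, the counts ranged from 27 to 29 and 28 to 33 (jejunum, day 55 and day 176 steps), 45 to 47 and 22 to 24 (ileum), 0 to 7, 38 to 42 and 26 to 29 (segments at days 8, 55 and 176), 33 to 38 (age effect) and 56 to 59 (blood against intestine). For treatments they ranged from 0 to 1 in blood, 0 to 0 in jejunum and 0 to 18 in ileum at day 8, 13 to 18 and 3 to 9 at day 55, and 0 to 6 and 0 to 0 at day 176 (jejunum, then ileum). Between segments at day 8 none was called without jejunum T3 pool 3, jejunum T2 pool 7 or ileum T1 pool 11, 1 without ileum T2 pool 5, 5 without jejunum T1 pool 12 and 7 without ileum T1 pool 12. The 18 in ileum at day 8 came without ileum T1 pool 12, the 1 in blood without T1 pool 9, and the 3 in ileum at day 55 without T3 pool 1, with 4 without T3 pool 3 or T1 pool 9. Called genes of the whole array were not counted in these fits. Of 128 called differences of named genes, 82 were called under every alternative other than array removal and relabelling, and 46 were lost under at least 1. Scaling to the 75th percentile moved the median of all genes by 0.454 for ileum day 55 against day 8, by −0.465 between segments at day 55 and by 1.356 for blood, and gave splits of 23 higher and 35 lower in blood, 14 and 9 for the age effect from day 55 to day 176 (7 and 13 otherwise), and 7 and 2 for T3 in ileum at day 55 (4 and 3 otherwise). Genes near background are the least certain, among them SLC25A25, SLC22A13, SLC30A2 after day 8 and SLC34A1.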
